A study of Mus musculus with 12 samples.

Results

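Myotubes of the C2C12 line after 48 h of differentiation were compared with myotubes after 24 h, to find what the second day of differentiation changed across the transcriptome. The comparison used the 3 arrays titled as 48 h tubes and the 3 titled as 24 h tubes, 6 of the 12 arrays of the study, and covered the 11883 genes that could be tested. C2C12 is a single line of mouse skeletal myoblasts, and every array was of total RNA from it. Myoblasts grew in DMEM with bovine calf serum, and both myotube groups had been moved at full confluence to DMEM with a low share of heat-inactivated horse serum, insulin and transferrin. The remaining 6 arrays were of myoblasts at 50% and at 95% confluence, 3 each. They entered the fit for its estimate of the spread and gave the change on the first day, 24 h myotubes against 95% myoblasts. Whether the 3 arrays of a group stand for separate cultures is not in the labels. The p-values therefore cover only the variation among these arrays, which may be technical, and time in the differentiation medium and time in culture cannot be told apart.

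Skeletal muscle forms when myoblasts leave the cell cycle and fuse. MyoD commits the cells, myogenin and the MEF2 factors switch on the contractile genes, and CDK inhibitors such as p21 and p57 hold the nuclei out of the cycle. Newly fused myotubes then build sarcomeres, in which myosin thick filaments, actin thin filaments and the giant protein titin are held between Z-discs and M-bands, and couple them to a calcium store, the sarcoplasmic reticulum.

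Levels are the authors' deposited normalized values, taken as log2 intensities. The 12 columns held the same set of values, with a median of 6.684 and a range of 6.319 to 15.253. The values do not settle whether the scale is log2 throughout or variance-stabilized at its low end, so folds of dim genes may be understated. Across genes, Pearson's r between arrays of a group was 0.997 to 0.998 in the 50%, 24 h and 48 h groups. In the 95% group it was 0.996 between arrays 1 and 2 and 0.985 to 0.986 between either and array 3, which widens the error of any gene that varied on it. All 9 myotube markers with a probe lay above the median on every myotube array, and their summed linear intensity was 46500 to 57700 at 24 h and 108700 to 117100 at 48 h. The proliferating myoblast markers (5 of 7 above the median) summed to 7632 to 8163 at 24 h and 4911 to 5184 at 48 h. Of the 5, 4 fell and Myod1 rose. Of the other lists, the fibroblast markers (7 of 12 above the median) summed to 3767 to 4346 at 24 h and 3235 to 3435 at 48 h. The sums of the adipocyte (3 of 9), endothelial (2 of 10), macrophage (1 of 10) and osteoblast (2 of 7) lists were lower. They lay between 714.7 and 1129 on any array. Adipoq, Pecam1, Ptprc and Bglap, 1 from each list and picked after their values were seen, read 6.51 to 6.76 on the 6 myotube arrays. That is around the array median. Other members moved. Of 6 endothelial markers measured, Vwf and Cldn5 rose (0.47 and 0.36) and Flt1 fell (-0.44). Vwf and Cldn5 stayed near the array median. They counted as measured only because all their 48 h arrays lay above it, so a rise in them was largely built in. Cd14 of the macrophage list fell (-0.61), and no adipocyte or osteoblast marker passed.

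Of the 11883 genes, 5328 (44.8%) passed at an adjusted p under 0.05, 2706 of them higher at 48 h (22.8%) and 2622 lower (22.1%). The median change over all genes was -0.01 and the median size 0.17 on the log2 scale, with a median SE of 0.07. Since all columns held the same set of values, a shift common to all genes could not show in this median or these shares. At least a 2-fold change was reached by 294 genes that rose (2.47%) and 190 that fell (1.60%), or by 196 and 138 where the probes of a gene were averaged. Changes of at least 4-fold were seen in 40 genes that rose and 5 that fell. The arrays of the 2 groups did not overlap for 7373 genes (62.0%). Few genes crossed the array median. The 24 h mean lay below the array median for 8 of the 294 genes that rose at least 2-fold, and the 48 h mean for 1 of the 190 that fell. In this bulk RNA, fewer cells of a type and less RNA per cell cannot be told apart.

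The largest rises were led by parts of the sarcomere and of its calcium release machinery. Myh8, the perinatal myosin heavy chain, read 8.99, 8.24 and 8.59 on the 24 h arrays and 13.38, 13.17 and 13.35 on the 48 h arrays. All 3 arrays at 48 h lay far above all 3 at 24 h, a log2 change of 4.69 (SE 0.15, adjusted p = 1.33e-09), or 25.8-fold if the scale is log2. Actn2, the alpha-actinin that crosslinks thin filaments at the Z-disc, read 9.71, 9.01 and 9.24 at 24 h and 13.24, 13.08 and 13.09 at 48 h, a rise of 3.82 (SE 0.15, adjusted p = 6.59e-09), or 2.69 on the mean of its 3 kept probes. Ttn, titin, the spring that spans from Z-disc to M-band, read 10.00, 9.86 and 9.79 at 24 h and 13.69, 13.58 and 13.63 at 48 h. It rose by 3.75 (SE 0.12, adjusted p = 1.33e-09) on its brightest probe and by 1.26 on the mean of its 9 kept probes. The groups did not overlap for any of these genes.

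Ryr1, the calcium release channel of the sarcoplasmic reticulum, read 9.38, 9.14 and 9.01 at 24 h and 12.46, 12.45 and 12.18 at 48 h, a rise of 3.19 (SE 0.11, adjusted p = 3.09e-09) on its brightest probe and 2.19 on the mean of 5. Tcap, telethonin, which caps titin at the Z-disc, rose from 7.26 ± 0.19 to 9.98 ± 0.20 (SD, n = 3). Myom3, an M-band myomesin, rose from 9.61 ± 0.14 to 12.18 ± 0.12, and by 1.75 on the mean of its 2 probes. Mb, myoglobin, the oxygen-binding protein of muscle, read 10.71, 10.45 and 10.55 at 24 h and 13.19, 13.26 and 13.19 at 48 h. Its 48 h arrays were the tighter set, and the rise was 2.65 (SE 0.14, adjusted p = 3.99e-08). The other 5 of the 12 largest rises, Erich5, Ccnt2, Srr, Trps1 and Neat1, had fallen on the first day on their brightest probes and are described further on.

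**Figure D1:**
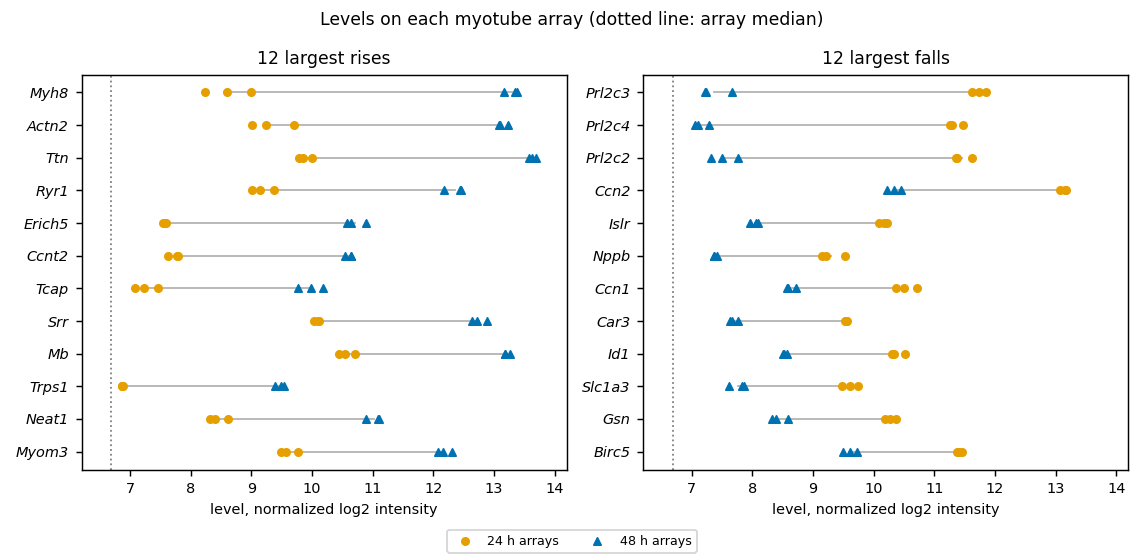
Levels on each of the 3 arrays at 24 h (circles) and at 48 h (triangles) of the 12 genes with the largest rise (left) and the 12 with the largest fall (right), in normalized log2 intensity, with the array median of 6.684 as a dotted line. Myh8 moved from 8.61 to 13.30 on average and Prl2c3 from 11.73 to 7.37, and the arrays of the 2 time points did not overlap for any gene drawn.

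The sarcomere lists held 64 genes, of which 48 passed the filter on dim probes. The test called 38 of these higher at 48 h and 4 lower, and left 6 uncalled. Their median change was 1.07, against 22.8% rising and a median of -0.01 over all genes tested. At least 2-fold rises were seen in 24 of them, against 2.47% of all genes, and the arrays did not overlap for 47, against 62.0% of all genes. Their median change on the first day had been 1.66. The lists were drawn up with earlier results of these data known, so the counts describe them and are no independent evidence of their direction. Genes that passed the filter only through their 48 h arrays, such as Myh4, Myh6, Myh7 and Myl2, also add rises that were largely built in. Every list count below is to be read against the 22.8% of all genes that rose and the 22.1% that fell.

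Among the myosin heavy chains all 5 measured genes rose. Of these Myh7, Myh6 and Myh4, like Myl2 among the light chains below, passed the filter on dim probes only through their 48 h arrays. The direction of their change was therefore largely built in. Myh1, the fast IIx chain of adult muscle, rose from 8.14 ± 0.17 to 10.38 ± 0.06 on its brightest probe. Its other kept probe was 0.23 higher at 48 h, and the mean of both was 1.24 higher. Myh7, Myh6 and Myh4, the slow and cardiac chains and the fast IIb chain, rose by 0.35, 0.34 and 0.27, all from levels near the array median. Of 6 myosin light chain genes 4 rose, led by Myl4, the embryonic light chain, at 1.91 on its brightest probe and 1.21 on the mean of 2. Myl2, the slow regulatory light chain, read 6.61, 6.49 and 6.50 at 24 h and 8.26, 8.08 and 8.01 at 48 h. It lay below the array median on all 24 h arrays and above it on all 48 h arrays, a change of 1.58 (SE 0.07, adjusted p = 1.61e-08) after a change of 0.03 on the first day that did not pass.

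Of 17 thin filament genes 12 rose, 2 fell and 3 did not pass. The fast troponins Tnnt3 and Tnni2, parts of the calcium switch on the thin filament, rose by 2.01 and 1.65. The slow troponin Tnni1 rose by 1.56 and Tmod1, a cap of the actin filament's pointed end, by 1.59. The falls were in Tpm1 and Tpm3, tropomyosin genes that also give non-muscle isoforms. Tpm1 went from 13.04 ± 0.12 to 11.88 ± 0.02 and fell on both kept probes. Tpm3 fell by 1.45 on its brightest probe, from 11.67 ± 0.02 to 10.22 ± 0.08, while its other 5 kept probes rose by 0.17 to 1.35, so the mean of its probes was 0.27 higher at 48 h. Which transcripts these probes read was not tested. In the list of titin, Z-disc and M-band genes, 17 of 20 rose and 2 fell. The falls were in Pdlim5, a Z-disc LIM protein (-0.48), and Fhl1, a LIM-only protein (-0.39).

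Some genes that had risen far on the first day lay near the top of the scale at 24 h. Acta1, skeletal alpha-actin, read 14.53, 14.14 and 14.57 at 24 h and 14.86, 14.83 and 14.77 at 48 h, a difference of 0.40 (adjusted p = 0.187). Mylpf, the fast regulatory light chain, read 14.65, 14.26 and 14.68 at 24 h and 14.98, 15.06 and 14.91 at 48 h, a difference of 0.45 (adjusted p = 0.304). In both the 48 h arrays all lay above the 24 h arrays, within 1 log2 unit of the highest value on the scale. Mylpf passed without array 3 of the 95% group, at an adjusted p of 0.0397, and both passed with only the 6 myotube arrays in the fit, at 0.00364 for Acta1 and 0.00179 for Mylpf. Both also passed with array weights, at 0.0439 and 0.0476, and over all alternatives the highest adjusted p was 0.467 for Acta1 and 0.564 for Mylpf. Tnnc2, fast troponin C, rose by 1.37 (adjusted p = 0.000618) and Actc1, cardiac alpha-actin, by 1.05 (adjusted p = 0.00308). On the first day these 4 genes had risen by 5.87, 6.52, 6.49 and 5.98, a step that shares the 24 h arrays with the second. The other kept probe of Actc1, further from the top of the scale, read 6.69 at 95%, 10.57 at 24 h and 12.21 at 48 h.

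**Figure D2:**
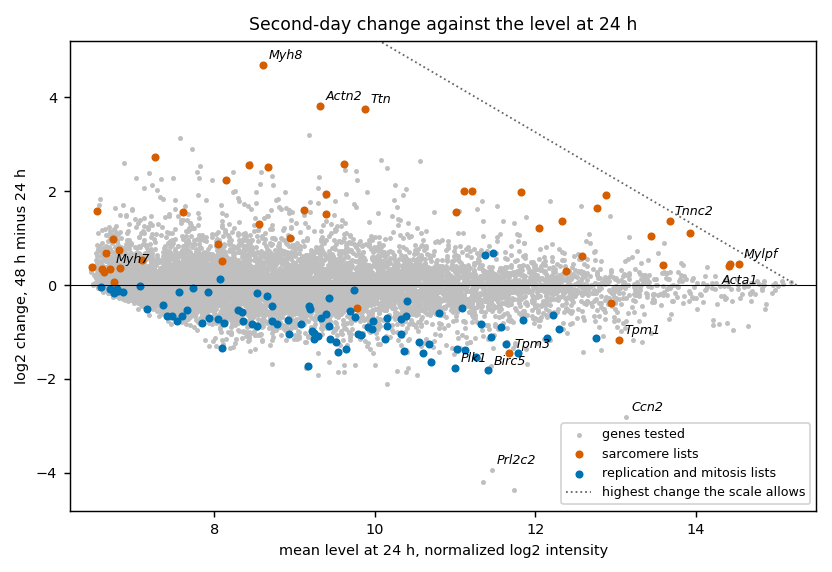
Change on the second day (vertical axis, log2) against the mean level at 24 h (horizontal axis, normalized log2 intensity) for the 11883 genes tested in grey, with the 48 sarcomere genes in orange and the 91 replication and mitosis genes in blue. The dotted line is the largest change that the scale allows; Acta1 and Mylpf lie close under it, while Myh8, Actn2 and Ttn started from levels of 8.61, 9.32 and 9.88.

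The promoters of sarcomere genes that rose are shown next because MEF2 factors bind a known A/T-rich motif and Mef2c itself rose on the second day. Windows of 250 bases before to 50 after the transcription start were taken from RefSeq on GRCm38.p6, and 29 of the 38 genes were matched, with 36 windows. A core of the MEF2 motif (CTA, any 4 bases, then TAG), which reads the same on both strands, was in 8 of the 36 windows (22.2%), of 7 genes (Des, Flnc, Ldb3, Myoz2, Obsl1, Synpo2l and Ttn). Over the windows of all genes tested the share was 3.28%, and over all 32851 windows 3.69%. The E-box CAGCTG, a form of the site bound by MyoD and myogenin, was in 12 of the 36 (33.3%), against 15.9% for all genes tested. A match is a description of the letters, not a site. The windows of the 2 holders with the largest rise follow, read along the gene's strand with the match in capitals, for Ttn (chr2:76982498-76982797, minus strand) and Myoz2 (chr3:123034938-123035237, minus strand), which encodes a calcineurin-binding Z-disc protein.
Ttn: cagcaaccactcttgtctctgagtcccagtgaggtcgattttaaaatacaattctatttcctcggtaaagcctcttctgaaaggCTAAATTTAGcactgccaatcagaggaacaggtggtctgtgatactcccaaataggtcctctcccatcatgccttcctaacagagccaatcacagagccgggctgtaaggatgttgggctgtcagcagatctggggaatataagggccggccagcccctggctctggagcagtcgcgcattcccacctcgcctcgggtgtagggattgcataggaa
Myoz2: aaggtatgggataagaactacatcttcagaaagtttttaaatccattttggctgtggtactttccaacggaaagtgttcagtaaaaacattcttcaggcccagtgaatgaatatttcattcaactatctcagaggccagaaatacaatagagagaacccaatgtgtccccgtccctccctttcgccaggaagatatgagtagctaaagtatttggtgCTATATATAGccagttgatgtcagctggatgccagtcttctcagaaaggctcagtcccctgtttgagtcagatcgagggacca

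Most genes of the sarcoplasmic reticulum and calcium handling rose, 15 of the 19 measured, while 2 fell. The median change of this list was 1.03. Casq2, a calsequestrin that buffers the stored calcium, rose by 2.42, Srl, sarcalumenin, by 2.13 (1.02 on the mean of 3 probes), and Hrc, another calcium-binding protein of the store's lumen, by 1.81. The falls were in Fkbp1a (-0.49), which binds the release channel, and Calm3 (-0.36), a calmodulin gene. Of the 15 genes that rose, 9 were matched to 11 promoter windows. CAGCTG was in 6 of these (54.5%), against 15.9% for all genes tested, and the MEF2 motif in none, against 3.28%. Of 12 sarcolemma and T-tubule genes 9 rose, among them Dysf, dysferlin, a membrane repair protein (2.31, or 1.59 on the mean of 4 probes), Cav3, the muscle caveolin (1.48), and Bin1, which shapes T-tubules (1.03). The exception was Aqp1, a water channel. It read 11.79, 11.92 and 11.97 at 24 h and 10.02, 10.30 and 10.32 at 48 h, with no overlap, and fell by 1.68 (SE 0.13, adjusted p = 1.06e-06).

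At the membrane, 9 of 15 costamere and dystrophin complex genes rose and 1 fell. Itgb1bp2, melusin, an integrin-binding protein of muscle, rose by 2.42, Ankrd2, a stretch-responsive ankyrin-repeat protein, by 2.29, Itga7, the laminin-binding integrin of muscle, by 1.06 and Sgca, alpha-sarcoglycan, by 1.04. Of 13 neuromuscular junction genes 8 rose and none fell, by smaller steps, with a median of 0.46. Utrn, utrophin, rose by 0.77 and Chrnb1, an acetylcholine receptor subunit, by 0.71. Chrng, the fetal receptor subunit, was 1.47 higher, at an adjusted p of 0.0452. The call was lost under 11 alternatives, among them each that left out an array of the 50%, 24 h or 48 h group, and the adjusted p ranged from 5.39e-07 without array 3 of the 95% group to 0.131 without array 2 of the 24 h group.

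Fusion and adhesion genes did not move as a group, with 6 of 23 rising (26.1%, near the share of all genes), 9 falling (39.1%) and a median of 0.01. Mymk, myomaker, which fusion requires, read 11.03, 10.44 and 10.76 at 24 h and 12.30, 12.35 and 12.22 at 48 h. It rose by 1.55 (SE 0.14, adjusted p = 3.56e-06), after 3.97 on the first day. Ncam1, a cell adhesion molecule of young myotubes, rose by 1.58. Itga3, an integrin subunit, fell by 1.07, Vcam1, an adhesion molecule, by 0.95 and Cd9, a tetraspanin, by 0.74.

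**Figure D3:**
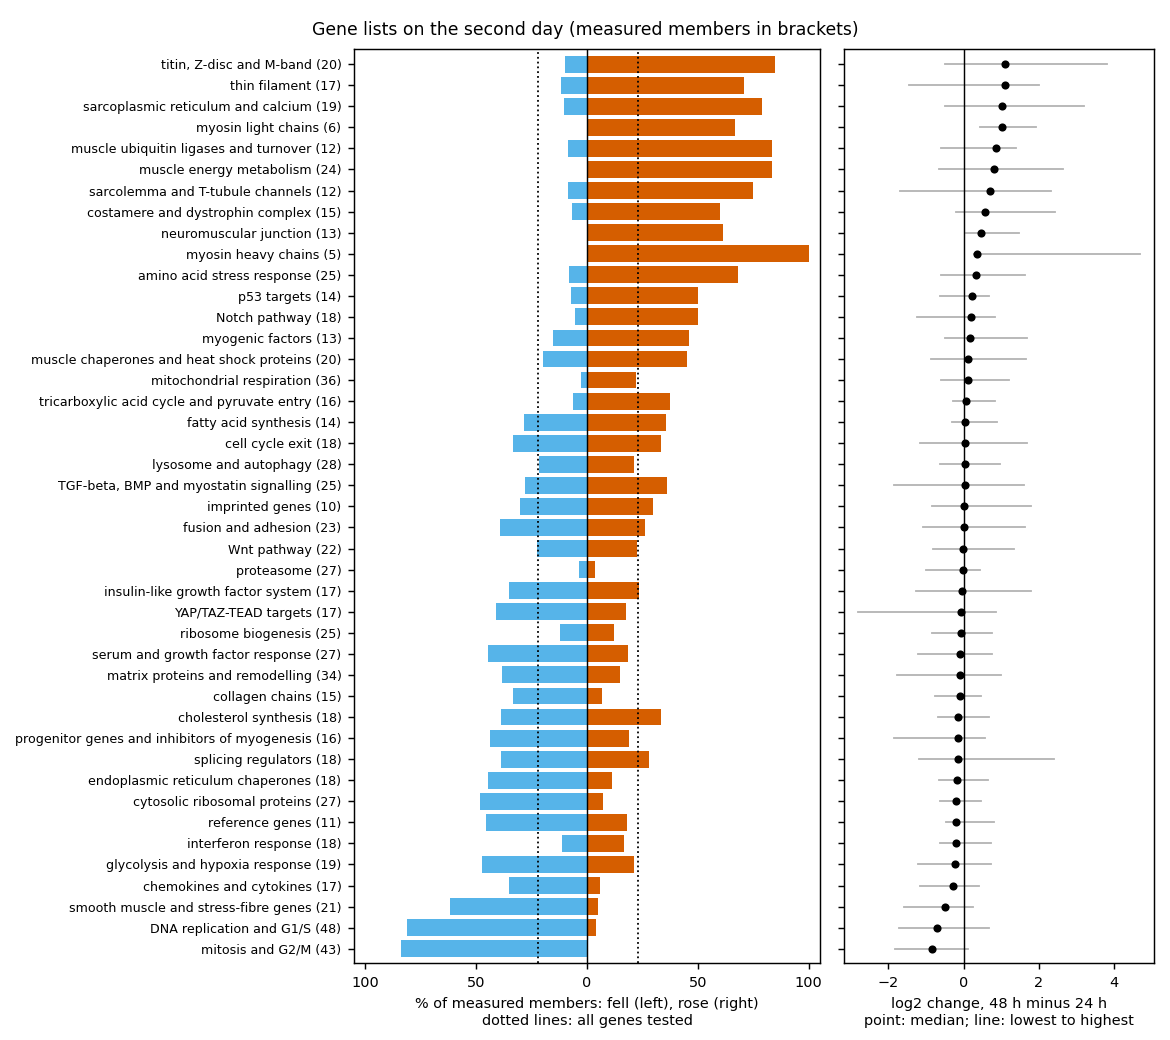
Gene lists on the second day. Bars give the percentage of measured members that rose (right) or fell (left), with dotted lines at the 22.8% and 22.1% of all genes tested, and the right panel gives each list's median log2 change with its lowest and highest member. Sarcomere, calcium and energy lists rose in most members, and the replication and mitosis lists fell in most.

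Muscle energy genes rose with the contractile genes, 20 of 24, with none falling and a median of 0.81. Cox6a2, the muscle form of a cytochrome oxidase subunit, rose by 2.49 and Pgam2, the muscle phosphoglycerate mutase, by 2.46. Ckm, muscle creatine kinase, read 10.07, 9.54 and 9.74 at 24 h and 12.02, 12.13 and 11.90 at 48 h, without overlap, a rise of 2.24 (SE 0.11, adjusted p = 2.44e-08). The general mitochondrial genes moved less. Among 36 respiratory chain and ATP synthase genes only 8 were called higher, a share close to that of all genes, and 1 lower. The median change was 0.12. Uqcrq, a subunit of complex III, was the one respiratory gene past 2-fold, at 1.20. In the tricarboxylic acid cycle list 6 of 16 rose, with Ogdh at 0.83 and Dlst at 0.79, both of the oxoglutarate dehydrogenase complex.

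Glycolysis and hypoxia genes leaned the other way, with 9 of 19 falling, 4 rising and a median of -0.23. Slc2a1, the glucose transporter GLUT1 of growing cells, fell from 11.64 ± 0.16 to 10.43 ± 0.13. Pgam1, the non-muscle phosphoglycerate mutase, fell by 0.55 while the muscle form Pgam2 rose, and Pgk1, phosphoglycerate kinase, fell by 0.46. Aldoa, the aldolase of muscle, rose by 0.60 and Vegfa, an angiogenic factor, by 0.74. Cholesterol synthesis genes split, with 6 of 18 rising and 7 falling, after 17 of the 18 had risen on the first day. Mvk and Nsdhl, enzymes of the pathway, fell by 0.67 and 0.66, and Ebp and Dhcr7, also enzymes of it, rose by 0.66 and 0.58.

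The myogenic regulators Mef2c, Myod1 and Myog rose. Mef2c read 8.63, 8.26 and 8.38 at 24 h and 10.24, 10.00 and 10.09 at 48 h, a rise of 1.69 (SE 0.10, adjusted p = 1.46e-07) on its brightest probe and 1.08 on the mean of 4. Myod1 read 9.84, 9.64 and 9.87 at 24 h and 10.56, 10.72 and 10.63 at 48 h, a rise of 0.85 (SE 0.07, adjusted p = 2.11e-06). Myog, myogenin, read 11.87, 11.68 and 11.83 at 24 h and 12.50, 12.68 and 12.40 at 48 h, a rise of 0.73 (SE 0.20, adjusted p = 0.00908). In all 3 genes every 48 h array lay above every 24 h array. Tead4, a TEAD factor, rose by 1.24 and Hes6, which relieves repression by HES1, by 0.77. Over the 13 measured genes of this list 6 rose and 2 fell. The filter on dim probes removed Pax7, whose highest group mean was 6.54, and Myf5, at 6.62. Mki67 and Myh3 were without a probe that could be used.

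The ID inhibitors of myogenesis fell. Id1, one of the ID proteins that tie up the partners of MyoD, read 10.52, 10.34 and 10.30 at 24 h and 8.51, 8.52 and 8.58 at 48 h, and fell by 1.85 (SE 0.19, adjusted p = 1.03e-05). Id3 read 8.79, 8.64 and 8.73 at 24 h and 7.04, 7.04 and 7.02 at 48 h, and fell by 1.69 (SE 0.15, adjusted p = 3.28e-06). Neither gene had passed on the first day, with changes of 0.01 and -0.01. These means depend on array 3 of the 95% group. The 95% arrays read 9.96, 10.19 and 10.99 for Id1 and 8.50, 8.49 and 9.205 for Id3. In both genes arrays 1 and 2 lay below all 24 h arrays and array 3 above them. The second step of Id1 and Id3 differed from the first by -1.86 (adjusted p = 0.00149) and -1.68 (adjusted p = 0.000638). Id2 fell by 1.23 on its brightest probe and by 0.39 on the mean of its probes. Hes1, a Notch-induced repressor, fell from 10.61 ± 0.08 to 9.37 ± 0.05 after a rise of 0.96 on the first day. Over the list of 16 progenitor genes and inhibitors 7 fell (43.8%), 3 rose (18.8%) and 6 did not pass.

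Most cell cycle genes fell. The replication and mitosis lists held 103 genes, and 91 were measured. Of these 75 fell and 2 rose, with a median change of -0.76, where 22.1% of all genes fell. Falls of at least 2-fold were seen in 29, against 1.60% of all genes. The arrays did not overlap for 86 of the 91, against 62.0% of all genes. The median on the first day had been -0.56. In the replication list 39 of 48 genes fell. Gins2, a subunit of the replicative helicase complex, went from 9.17 ± 0.02 to 7.46 ± 0.05, Tk1, thymidine kinase, fell by 1.41 and Mcm5, another helicase subunit, by 1.37. Tyms, thymidylate synthase, fell by 1.65 on its brightest probe and by 0.66 on the mean of 5. The 2 that rose were E2f2, an E2F transcription factor (0.67), and Cdk2, a kinase of S-phase entry (0.64).

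In the mitosis list 36 of 43 genes fell and none rose. Birc5, survivin, of the chromosomal passenger complex, read 11.40, 11.46 and 11.38 at 24 h and 9.60, 9.50 and 9.72 at 48 h, and fell by 1.81 (SE 0.08, adjusted p = 1.37e-08). Plk1, a kinase of mitotic entry, read 9.10, 9.37 and 9.25 at 48 h, below all its 24 h arrays, and fell by 1.76 (SE 0.09, adjusted p = 4e-08). In both the groups lay well apart. Cdk1, the mitotic kinase, fell by 1.53 on its brightest probe and by 0.58 on the mean of 3, and Anln, anillin, which acts in cytokinesis, fell by 1.46.

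The promoters of these genes differed in the letters they held. Replication genes are classic targets of E2F, and mitotic genes carry a cell cycle homology region bound by the DREAM and MuvB complexes. The E2F letters TTTCCCGC or TTTGGCGC, on either strand, were in 9 of 38 windows of replication genes that fell (23.7%) and in 2 of 32 of mitosis genes that fell (6.25%), against 2.66% for all genes tested and 1.56% for all windows. The region's letters TTTGAA, on either strand, were in 25 of 32 mitosis windows (78.1%) and 4 of 38 replication windows (10.5%), against 12.2% and 17.9%. CCAAT was in 22 of the 32 and 21 of the 38, against 37.4% for all genes tested. Windows were found for 31 of the 39 replication genes and 30 of the 36 mitosis genes that fell. Those of Mcm5 (chr8:75109259-75109558, plus strand), with the E2F letters in capitals as they read on the opposite strand, and of Plk1 (chr7:122159185-122159484, plus strand) and Cdk1 (chr10:69352863-69353162, minus strand), with TTTGAA in capitals, are the holders with the largest falls.
Mcm5: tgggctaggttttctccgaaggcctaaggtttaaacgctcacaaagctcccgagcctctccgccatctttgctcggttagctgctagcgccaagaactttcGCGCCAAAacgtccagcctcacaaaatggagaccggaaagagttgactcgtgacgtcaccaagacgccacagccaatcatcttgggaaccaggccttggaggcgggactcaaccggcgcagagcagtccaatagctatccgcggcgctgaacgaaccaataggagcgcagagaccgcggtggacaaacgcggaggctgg
Plk1: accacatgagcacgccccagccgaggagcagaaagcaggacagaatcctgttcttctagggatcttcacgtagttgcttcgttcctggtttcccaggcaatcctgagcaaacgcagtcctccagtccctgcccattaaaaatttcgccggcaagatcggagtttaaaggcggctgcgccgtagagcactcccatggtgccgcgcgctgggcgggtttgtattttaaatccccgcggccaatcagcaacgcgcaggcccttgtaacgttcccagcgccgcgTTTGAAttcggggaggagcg
Cdk1: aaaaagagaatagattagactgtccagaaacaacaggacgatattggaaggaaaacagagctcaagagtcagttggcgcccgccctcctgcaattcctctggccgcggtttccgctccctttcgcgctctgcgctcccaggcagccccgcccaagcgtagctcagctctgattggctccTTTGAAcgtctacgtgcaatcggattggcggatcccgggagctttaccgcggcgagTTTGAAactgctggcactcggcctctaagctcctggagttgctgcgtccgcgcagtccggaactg

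Genes of cell cycle exit changed in both directions. Cdkn1c, the CDK inhibitor p57, read 11.79, 11.34 and 11.43 at 24 h and 13.20, 13.23 and 13.16 at 48 h, a rise of 1.68 (SE 0.13, adjusted p = 8.7e-07). Cdkn1a, the inhibitor p21, rose from 13.84 ± 0.11 to 14.28 ± 0.03 (adjusted p = 0.00739), near the top of the scale. Rb1, the retinoblastoma protein, rose by 0.80. Cdkn2c, the inhibitor p18, fell by 1.16, Rbl1, the retinoblastoma relative p107, by 0.70 and Cdkn1b, the inhibitor p27, by 0.31. Ccnd1, cyclin D1, read 11.25, 11.42 and 11.31 at 24 h and 10.39, 10.44 and 10.67 at 48 h, with no overlap, and fell by 0.83 (SE 0.11, adjusted p = 5.3e-05).

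The 3 largest falls of all were proliferin probes, read from a family of prolactin-related hormones that growing cells secrete. Prl2c3 read 11.62, 11.85 and 11.73 at 24 h and 7.23, 7.21 and 7.66 at 48 h, and fell by 4.37 (SE 0.14, adjusted p = 1.33e-09). It had already fallen by 2.59 on the first day. Prl2c2 changed by -3.93 (-3.32 on the mean of 2 probes) and Prl2c4 by -4.20, both past the test. RefSeq lists Prl2c4 as a synonym of Prl2c3, the genes are near-identical, and the probes may read the same transcripts. Prl2c5, the remaining member measured, differed by -0.16 from a level at the array median, a call (adjusted p = 0.0472) lost under 7 alternatives, with adjusted p from 0.0129 to 0.148. The losses included each 48 h array left out in turn, arrays 2 and 3 of the 24 h group and array 2 of the 50% group.

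The other large falls included secreted and matrix-associated factors. Ccn2, connective tissue growth factor, read 13.07, 13.17 and 13.16 at 24 h and 10.33, 10.22 and 10.44 at 48 h. The groups are tight and far apart, and the gene fell by 2.80 (adjusted p = 2.29e-05), with an SE of 0.32 set by the 95% arrays, which read 10.70, 11.55 and 12.58. Ccn1, a related matricellular protein, read 10.37, 10.71 and 10.50 at 24 h and 8.56, 8.58 and 8.72 at 48 h, and fell by 1.91 (SE 0.16, adjusted p = 1.54e-06). Both are known targets of YAP and TAZ with TEAD factors. Over that list 7 of 17 genes fell and 3 rose, the latter being Tead1 (0.87), Tead2 (0.49) and Wwtr1, which encodes TAZ (0.40). Islr, a leucine-rich repeat protein, fell from 10.15 ± 0.06 to 8.04 ± 0.07, and the mean of its 2 probes changed by -1.18. Nppb, the natriuretic peptide BNP, fell from 9.29 ± 0.20 to 7.38 ± 0.03. Slc1a3, a glutamate transporter, fell by 1.84 and Gsn, gelsolin, which severs actin filaments, fell by 1.83, with -1.20 on the mean of its 2 probes.

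Matrix genes fell in 13 of 34 (38.2%), with 5 rising (14.7%). Thbs1, thrombospondin 1, read 9.09, 9.32 and 9.03 at 24 h and 7.30, 7.40 and 7.47 at 48 h, and fell by 1.76 (SE 0.09, adjusted p = 2.49e-08). Thbs2 fell by 1.32 and Fbln1, fibulin 1, fell by 1.27, while Lama5, a laminin chain, rose by 1.01. Of 15 collagen chains 5 fell (33.3%) and 1 rose (6.67%). The fibroblast marker sums given above also fell, but they include Col1a1 and Col3a1 and so are not separate from the collagen counts. Of the 9 fibroblast markers measured 2 fell and 1 rose, with a median of -0.10. The 1 that rose, Mfap5, passed the filter on dim probes only through its 48 h arrays. The part of fibroblasts in these counts was not tested. In the list of smooth muscle and stress-fibre genes 13 of 21 fell and 1 rose, with a median of -0.50. Actg2, smooth muscle gamma-actin, fell by 1.58, Myl9, the regulatory light chain of non-sarcomeric myosin, by 1.39 and Cnn2, a calponin, by 0.90. Srf, the transcription factor of many such genes, fell from 11.18 ± 0.10 to 9.98 ± 0.06.

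In the serum and growth factor response 12 of 27 genes fell (44.4%) and 5 rose (18.5%). Dusp1 and Dusp5, phosphatases that switch off MAP kinases, fell by 1.15 and 0.83, and Ier3, an immediate early gene, by 0.97. Junb, an AP-1 subunit, rose by 0.76. Chemokine and cytokine genes fell in 6 of 17 (35.3%) and rose in 1. Ccl9, Cxcl1 and Cxcl12, which attract leukocytes or progenitors, were at -1.14, -1.07 and -1.04. Of the 17 members of the insulin-like growth factor list, 6 fell (35.3%) and 4 rose (23.5%, near the share of all genes), and the median change was -0.04. Igf2, an autocrine ligand of differentiating myoblasts, read 12.36, 12.04 and 12.14 at 24 h and 13.97, 13.94 and 13.96 at 48 h, a rise of 1.78 (SE 0.26, adjusted p = 0.000152). Its receptors Igf2r, Insr and Igf1r rose by 1.36, 0.96 and 0.71. The other ligand, Igf1, fell by 0.50. The binding proteins Igfbp2, Igfbp7 and Igfbp6 fell, with changes of -1.27, -0.99 and -0.79. The culture medium contained insulin at both times.

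In TGF-beta, BMP and myostatin signalling 9 of 25 genes rose (36%) and 7 fell (28%). Fst, follistatin, which binds and blocks activins and myostatin, rose from 8.71 ± 0.15 to 10.31 ± 0.19. Inhba, the activin A subunit, fell by 1.16 (SE 0.22), and the BMP-responsive genes Id1, Id2 and Id3 fell as given above. Among Notch genes 9 of 18 rose and 1, Hes1, fell. The receptors Notch1 and Notch3 rose by 0.84 and 0.81, and Numb, which restrains Notch, by 0.65. In the Wnt list 5 of 22 rose and 5 fell (22.7% each way), near the shares of all genes, with the receptor Fzd2 at 1.34 and Ccn4, a Wnt-induced matricellular protein, at -0.81.

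Amino acid stress genes rose in 17 of 25, with a median of 0.33. Fgf21, a hormone that stressed muscle secretes, read 11.47, 11.01 and 11.33 at 24 h and 12.83, 13.22 and 12.65 at 48 h, and rose by 1.63 (SE 0.14, adjusted p = 2.68e-06). Trib3 and Chac1, targets of the ATF4 and CHOP factors, rose by 0.97 and 0.94. The 2 falls were in Phgdh, the first enzyme of serine synthesis (-0.61), and Atf3 (-0.56). Endoplasmic reticulum chaperones fell in 8 of 18, with Calr, calreticulin, at -0.66 and Pdia3, a disulfide isomerase, at -0.55. The 2 that rose were Herpud1 (0.65) and Hyou1 (0.38). Of 12 muscle ubiquitin ligases and related genes 10 rose, among them Asb2 (1.39) and Klhl41 (1.36), and Fbxo32, the atrophy-linked ligase atrogin-1, fell by 0.59. Muscle chaperones and heat shock proteins changed in both directions, with 9 of 20 rising, 4 falling and a median of 0.12. Unc45b, the chaperone that folds myosin, rose by 1.66 (1.03 on the mean of 2 probes) and Hspb7 and Hspb3, small heat shock proteins of muscle, by 1.59 and 1.53. The falls were in Hspb6 (-0.86) and Hspb1 (-0.19), also small heat shock proteins, Hspa1b (-0.67), an inducible HSP70, and Hsp90aa1 (-0.40), an HSP90.

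Splicing regulators changed in both directions, with 5 of 18 rising (27.8%) and 7 falling (38.9%). Rbfox1, which promotes muscle exons, read 7.32, 7.12 and 7.14 at 24 h and 9.68, 9.57 and 9.49 at 48 h, a rise of 2.39 (SE 0.06, adjusted p = 4.76e-10) on its brightest probe and 1.41 on the mean of 2. Rbm38, an RNA-binding protein that stabilizes p21 mRNA, rose by 1.69 (1.06 on the mean of 3 probes). Ptbp1, which represses many muscle exons, fell by 0.70 and Hnrnpf, another splicing factor, fell by 1.19. Few proteasome genes passed, 1 of 27 in each direction, and of 25 ribosome biogenesis genes 3 rose and 3 fell. Cytosolic ribosomal protein genes fell in 13 of 27 by small steps, with a median of -0.19. Among 11 reference genes 5 fell (45.5%) and 2 rose (18.2%).

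The second day was set against the first. The 2 steps share the 24 h arrays, so an error on those arrays moves them in opposite directions, and the test of the difference includes this. Of all genes 3451 (29.0%) differed between the steps, 1913 with a second change above the first and 1538 with one below it. Among all 11883 genes tested, 1894 had risen and 2529 had fallen on the first day. Of the 2706 genes that rose on the second day, 772 had risen and 562 had fallen on the first day, and 1372 had not passed. Of the 2622 that fell, 959 had fallen and 392 had risen, and 1271 had not passed. The counts that went opposite ways were close to the shares over all genes, and the counts that went the same way were above them. Among the 294 rises of at least 2-fold, 186 had risen on the first day and 40 had fallen. Among the 190 falls, 109 had fallen and 29 had risen.

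The largest rises after a fall were in genes outside the muscle lists. Srr, serine racemase, read 12.63, 12.63 and 12.66 at 50% confluence, 10.45, 11.27 and 10.76 at 95%, 10.03, 10.11 and 10.10 at 24 h and 12.88, 12.63 and 12.73 at 48 h. Its 48 h arrays overlapped those of the 50% myoblasts, and the rise was 2.67 (adjusted p = 7.68e-08) on its brightest probe and 1.54 on the mean of 3. Ccnt2, cyclin T2, a partner of the elongation kinase CDK9, read 10.19, 10.17 and 10.11 at 50%, 8.52, 8.93 and 8.56 at 95%, 7.79, 7.77 and 7.62 at 24 h and 10.65, 10.55 and 10.64 at 48 h. Its brightest probe rose by 2.88, and the mean of its 4 probes by 0.86. On the first day only that probe fell by a large step. The other kept probes went from 7.48 at 95% to 7.65 at 24 h, 7.36 to 7.40 and 6.75 to 6.73. Neat1, the long noncoding RNA of paraspeckles, read 10.62, 10.53 and 10.59 at 50%, 10.13, 10.05 and 9.54 at 95%, 8.61, 8.40 and 8.32 at 24 h and 11.11, 11.10 and 10.89 at 48 h. Its lowest arrays were those at 24 h, and the rise was 2.59 (adjusted p = 3.83e-08). Trps1, a GATA-type repressor, rose from 6.87 ± 0.01 to 9.48 ± 0.08, and by 1.10 on the mean of its 3 probes. Erich5 rose from 7.57 ± 0.03 to 10.71 ± 0.17 and Rhbdl2, a rhomboid protease, from 7.82 ± 0.07 to 10.35 ± 0.14.

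The largest falls after a rise were in Ccn2, Nppb, Ccn1, Car3, Thbs1 and Coq10b, which had risen on the first day by 1.52, 1.32, 1.38, 1.57, 0.60 and 0.88. Car3, a carbonic anhydrase of muscle, read 9.53, 9.55 and 9.56 at 24 h and 7.67, 7.75 and 7.63 at 48 h, and fell by 1.86 (SE 0.35, adjusted p = 0.000922). Coq10b, a coenzyme Q-binding protein, fell by 1.42 on its brightest probe and by 0.66 on the mean of 4. All 6 had their 24 h arrays above their 48 h arrays.

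**Figure D4:**
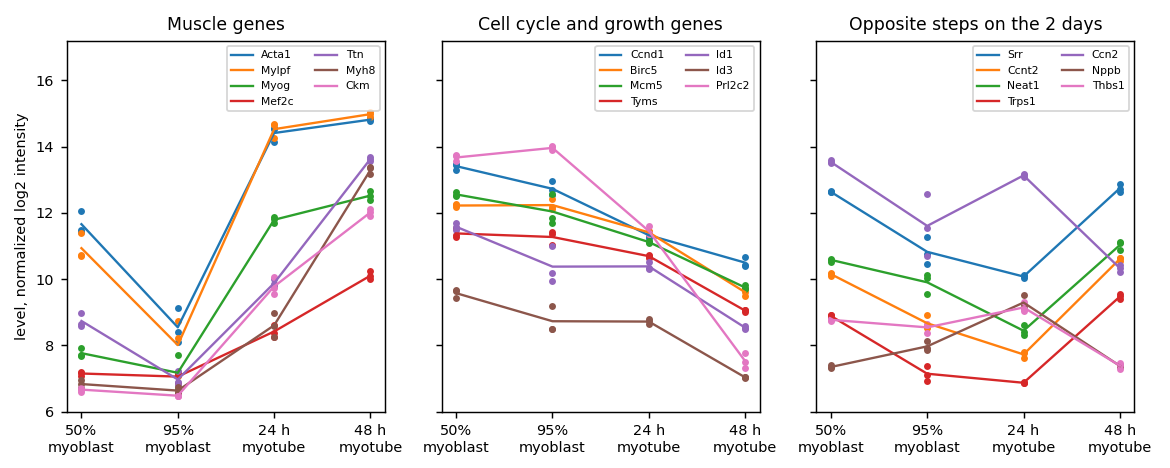
Levels across the 4 groups, in normalized log2 intensity, with a point for each of the 3 arrays and a line through the group means. Each gene is drawn from its brightest probe. Myh8 and Ttn rose mostly on the second day while Acta1 and Mylpf flattened (left). The means of Id1 and Id3 changed by 0.01 and -0.01 on the first day and fell on the second (middle). Their 95% arrays lay on both sides of those at 24 h. Srr, Ccnt2, Neat1 and Trps1 fell to 24 h and rose while Ccn2, Nppb and Thbs1 rose to 24 h and fell (right).

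A comparison that shares no array with the second day is that of the 2 myoblast densities. Of the 2706 genes that rose on the second day, 1156 were lower at 95% than at 50% confluence and 230 were higher. The 1156 are 42.7% of the rises and 46.3% of the 2498 genes lower at 95%, while 22.8% of all genes rose. Of the 2622 that fell, 1036 were higher at 95% and 376 were lower. The 1036 are 39.5% of the falls and 46.2% of the 2244 genes higher at 95%, while 22.1% of all genes fell. Across all genes the change from 24 h to 48 h and the difference 50% minus 95% had a Pearson r of 0.33 and a Spearman rho of 0.31. This is across genes, which are not independent replicates. The 2 differences were unequal for 3996 genes (33.6%), or for 5411 without array 3 of the 95% group. That array stood apart from the other arrays at 95%, where Islr read 10.13, 10.22 and 7.77. Among the 3996 were 252 of the 294 rises and 161 of the 190 falls of at least 2-fold. These were chosen by their second-day change, which is part of the difference tested, so a high share among them was built in. Myh8 was unequal by 4.49 (adjusted p = 1.36e-07) and Birc5 by -1.80 (adjusted p = 1e-06). For Gsn the 2 differences were not told apart, the second-day change being -0.03 (SE 0.32, adjusted p = 0.951) from the density difference.

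**Figure D5:**
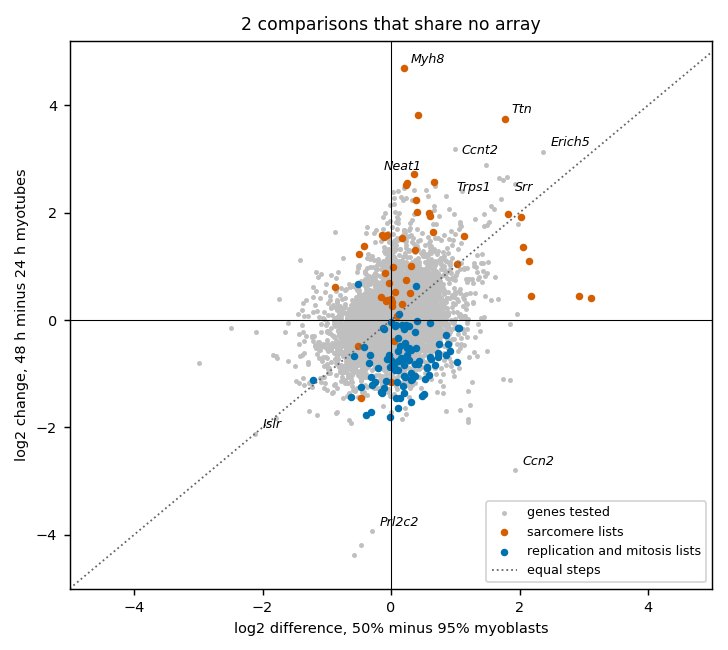
Change from 24 h to 48 h (vertical axis, log2) against the difference between 50% and 95% myoblasts (horizontal axis, log2), which share no array, for the 11883 genes tested. Myh8 lies near 0 on the horizontal axis, Srr, Erich5 and Trps1 are high on both, Islr is low on both, and Ccn2 is low on the vertical and high on the horizontal axis; the dotted line marks equal differences.

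The genes that rose had a longer median span. The median span from first to last base of the gene, known for 99.8% of genes from RefSeq on GRCm38.p6, was 22.0 kb over all genes, 28.8 kb for those that rose and 20.8 kb for those that fell. It was 34.3 kb for the genes that rose and were lower at 95% than at 50% confluence, and 18.9 kb for those that rose and were higher. In 4 groups of equal size by span, from shortest to longest, 15.7%, 22.0%, 24.4% and 29.0% of genes rose and 22.9%, 23.2%, 22.8% and 19.5% fell. The batch in which arrays were run is not named in the sources used here, and its part in these values was not tested.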

How the data were processed

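Per the labels' protocols, total RNA was purified on columns, checked on a Bioanalyser, and labelled as biotinylated cRNA for Illumina arrays. The authors deposited normalized log2 values, made with RMA and lumi per the submitters' processing notes. A table before normalization has 24 columns that match no labels and was not used. Of 45281 probes, 34885 had 1 gene. A probe was kept (19403 were) if every array of some group read it above that array's median, and each gene was read from its kept probe with the highest mean. For named genes, the mean over kept probes is given where it moves the fold by over 1.5 times. The 4 group means were fitted with limma 3.58.1 (lmFit, eBayes) in R 4.3.3, with 8 residual and 3.59 prior degrees of freedom, on 12 arrays; the number of arrays limits the precision. A call is a 2-sided adjusted p under 0.05 (Benjamini-Hochberg over all genes). The fit was tested on simulated data. SE is the fit's standard error and SD the spread of 3 arrays.

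Named genes were the 12 largest rises and 12 largest falls with no overlap of arrays, a fixed set of 12 (Acta1, Ccnd1, Cdkn1a, Ckm, Id3, Mef2c, Mki67, Myf5, Myh3, Myod1, Myog, Pax7), up to 4 rises and 4 falls past the threshold per list (every measured member of lists of at most 9), the 6 largest rises and 6 largest falls of genes that went the opposite way on the first day, and the 6 largest differences between the 2 days each way. The text prints the clearest. The marker genes Adipoq, Pecam1, Ptprc and Bglap, the genes of the other observations and, beyond these rules, any holder of a promoter motif were named after their values were seen. The members and lists were chosen with earlier results of these data known. Alternatives changed the filter, the choice of probe, the variance model, the weights, the centring, the block and the arrays used.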

Additional observations from a re-analysis of the deposited data

Results flagged for a closer look

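The change on the second day differed from that on the first for the following 18 genes, by the test of the difference itself (limma, adjusted p under 0.05). The value is the change on the second day minus the change on the first, on the log2 scale, and both changes share the 24 h arrays. Each is from the gene's brightest probe. On the mean of kept probes the second-day change of 6030458C11Rik was 0.91 against 2.40, and that of Myl1 1.24 against 0.45. The first-day fall of Ccnt2 and 6030458C11Rik was mostly that of the brightest probe. In 6030458C11Rik that probe went from 8.88 to 7.79, and the other kept probes from 6.805 to 6.789 and 6.782 to 6.605. Among genes that fell and then rose on the probe used, the value was 4.05 for Neat1, 3.83 for Ccnt2 and 3.80 for Erich5. It was 3.49 for 6030458C11Rik, 3.41 for Srr, 3.01 for Rhbdl2 and 2.88 for Trps1. Among genes that rose and then fell it was -4.33 for Ccn2, -3.43 for Car3, -3.29 for Ccn1, -3.24 for Nppb, -2.36 for Thbs1 and -2.31 for Coq10b. Among contractile genes that rose far more on the first day it was -6.06 for Mylpf, -5.46 for Acta1, -5.12 for Tnnc2, -4.94 for Actc1 and -4.24 for Myl1, whose 24 h values lay between 13.32 and 14.68 on a scale that ends at 15.253. The steps of Actc1 were less unequal on its other kept probe, which read 6.69 at 95%, 10.57 at 24 h and 12.21 at 48 h. Its brightest probe read 7.46, 13.45 and 14.49.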

How the results depend on the processing

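The count of 5328 genes ranged from 4412 with a level filter of 7.5 to 6670 with array weights, and was 6555 with only the 6 myotube arrays. Leaving out each array in turn gave 4560 to 6269 genes, 286 to 312 rises and 173 to 197 falls of at least 2-fold. Alternatives that left out a myoblast array other than array 3 of the 95% group were chosen after seeing the data. No main count moved past 1.5 times. The replicate numbers did not pair the samples (correlations of deviations 0.18, -0.05 and 0.06), and with the replicate block 5388 genes passed. Of 6718 pairs of a named gene and an alternative, 6531 kept direction and side of the threshold, 161 lost the call, 17 gained it and 9 turned. With the mean of kept probes the changes of Tcf12 (0.23), Tpm3 (0.27), Sntb2 (0.0559), Atp5o (-0.05), Smad5 (-0.11), Col6a2 (-0.00783), Actn4 (-0.29) and Actb (0.26) turned. Actb also turned with only the 6 myotube arrays (0.10). Of 1848 pairs of a list count and an alternative, 122 moved past 1.5 times. The causes were not tested. Background correction of the table before normalization and slide as a block were not run, since its columns match no labels and no slide is named.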

Other observations

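Of the genes that changed at least 2-fold, 216 that rose and 130 that fell belonged to none of the lists. The following were picked from them after their values were seen, so they are values only. Several further muscle genes rose. Srpk3, a muscle kinase of splicing factors, rose by 2.31, Ankrd23, a titin-binding ankyrin-repeat protein, by 2.27, and Ky, a Z-disc-associated protein, by 2.14. Dhrs7c and Tmem38a, proteins of the sarcoplasmic reticulum membrane, rose by 2.16 and 1.67. Alpk3, a kinase of striated muscle, rose by 2.00 and Prkag3, a muscle subunit of the energy sensor AMPK, by 1.82. Fndc5, the precursor of the myokine irisin, read 9.34, 9.03 and 9.04 at 24 h and 10.42, 10.53 and 10.43 at 48 h, a rise of 1.33 (SE 0.08, adjusted p = 1.52e-07). Ppargc1b, the coactivator PGC-1 beta, rose by 1.29, and its relative Ppargc1a, a member of the energy list, by 0.21.

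Several genes of antioxidant defence fell. Gpx1, a glutathione peroxidase, read 12.56, 12.67 and 12.53 at 24 h and 11.07, 11.12 and 11.31 at 48 h, and fell by 1.42 (SE 0.07, adjusted p = 3.83e-08). Also past the test were Nqo1, a quinone reductase (-1.27), Prdx4, a peroxiredoxin of the secretory pathway (-1.08), Srxn1, sulfiredoxin (-1.07), and Aldh3a1, an aldehyde dehydrogenase (-1.77). Chromatin and nuclear lamina genes were also lower, with Hmgb2 at -1.71, Rbbp7, a histone-binding protein, at -1.73 and the nuclear lamin Lmnb1 at -1.11. The H2A genes H2ac11, H2ac12, H2ac15 and H2ac21 fell, with changes of -1.27, -1.17, -1.21 and -1.26, and their probes may read each other's near-identical transcripts. Cav1, the caveolin of non-muscle cells, went from 11.74 ± 0.11 to 10.51 ± 0.07 while the muscle caveolin Cav3 rose by 1.48.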
